A study of Tachysurus ussuriensis with 12 samples.

Results

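The tissue difference between gill and kidney at 0 h of acute salinity stress was measured in the Ussuri catfish (Tachysurus ussuriensis), a freshwater bagrid catfish, by RNA sequencing of total RNA. The comparison used 6 of the 12 libraries of the series, 3 of gill and 3 of kidney, all labelled 0 h. The other 6 libraries, 3 of each tissue, were labelled 24 h and served here to follow the 0 h differences in libraries that had not been used to find them. The labels give no genotype, age, sex or salinity, do not say which part of the kidney was taken, and do not say whether each sample is a fish of its own. The p-values below therefore rest on the variation among these 6 samples, some of which may be technical. Levels are given as FPKM, the fragments of a transcript scaled by its length and by the mapped fragments of the library, for 84875 assembled transcripts. Of these, 62257 (73.4%) had 3 or more of the 6 libraries at an FPKM of at least 1 and were tested. The 14284 transcripts that reached it in exactly 3 libraries had a median of 1.37 for their mean FPKM, and the 10411 that reached it in exactly 2, and so were left out, had a median of 0.872.

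In freshwater fish the gill exchanges respiratory gases, excretes ammonia and takes up sodium, chloride and calcium from dilute water through ionocytes in its epithelium. The kidney filters plasma, reabsorbs salts along its tubules and voids dilute urine, and in bony fishes it is also a site of blood cell formation. The deposited table does not pair its transcript IDs with gene names, and no annotation was used here. Transcripts are therefore described by their levels, at most 2 IDs are named for each direction, and neither tissue could be checked against the markers of its cell types.

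The 3 gill libraries correlated with each other at r = 0.905 to 0.917 on log2(FPKM + 1) over the tested transcripts, and kidney replicates 1 and 3 at 0.914. Kidney replicate 2 stood apart, with r = 0.826 and 0.827 to the other kidney libraries, while libraries of different tissues correlated at 0.567 to 0.622. Kidney replicate 2 had 47476 transcripts at an FPKM of 1 or more, against 56342 and 56500 in kidney replicates 1 and 3 and 56858 to 58617 in gill. Relative depth, estimated from recurring steps between low values, was 1.02 in this library and ran from 0.896 to 1.09 over the 6 libraries. Absolute read numbers are unknown, and the cause of the lower number of transcripts was not tested. The median SD between replicates, on the log2(FPKM + 1) scale, was 0.258 in gill and 0.421 in kidney, and 0.193 in kidney when replicate 2 was left out.

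A set of 111 transcripts had an FPKM of at least 100 in kidney replicate 2 and at least 10 times the level of either other kidney library of 0 h. The same rule found 0 to 4 transcripts in each of the other 5 libraries of 0 h. These 111 transcripts held 10.1% of the FPKM total of kidney replicate 2, 0.0680% in kidney replicate 1 and 0.0653% in kidney replicate 3. In gill at 0 h they held 0.0761%, 0.0781% and 0.0893%. Among the 24 h libraries, kidney replicate 3 stood out at 1.52%, while the other 5 lay between 0.0757% and 0.0850%. Of the 111, 42 passed the filter on low values and 2 were called different between the tissues, where 26.4% of all tested transcripts were called. The rule selects a wide spread within kidney, which by itself works against a call, so the 2 calls are only a description. In a fit without kidney replicate 2, 13 were called, beside 32.6% of those tested. What this library contains that the others lack was not tested.

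Between gill and kidney 16451 transcripts differed at 0 h, or 26.4% of those tested, with 10142 (16.3%) at a higher level in gill and 6309 (10.1%) at a higher level in kidney. A transcript was called different at a Benjamini-Hochberg adjusted p under 0.05 in limma, two-sided, on log2(FPKM + 1). Without kidney replicate 2, 20277 were called (32.6%), 10966 of them (17.6%) higher in gill and 9311 (15.0%) higher in kidney, so that gill-higher transcripts made up 54.1% of the calls in place of 61.6%. Of the 16451, 15318 were called in the same direction without it. In bulk tissue, fewer cells of a type and less RNA per cell cannot be told apart, which holds for every difference below. The FPKM totals were higher in gill (714003, 689819 and 701432) than in kidney (635091, 638005 and 631998). Levels and differences as deposited were not corrected for this. Over the tested transcripts the median difference (gill minus kidney, log2 scale) was 0.02 as deposited, and it was -0.09 with equal totals and -0.10 with quantile normalization. The share of calls higher in gill was then 56.5% and 53.5%, so the excess of gill-higher transcripts was smaller in these fits. Both fits kept kidney replicate 2, and neither scaling was combined with leaving that library out.

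The sizes of the called differences are a description, since a call requires a difference large against the replicate spread. Of the 16451, 14807 (90.0%) differed by at least 1 on the log2 scale, that is by 2-fold or more in FPKM + 1, and the median absolute difference was 1.63 among those called against 0.53 over all tested transcripts. The largest differences were more often on the gill side. At 2 or more on the log2 scale, 3633 called transcripts were above in gill and 1624 in kidney, and at 4 or more there were 611 and 134. At 6 or more there were 91 on the gill side and 10 on the kidney side. Without kidney replicate 2 these numbers were 3524 and 2270, 600 and 191, and 93 and 14, which kept the order while the kidney side gained. For 25225 tested transcripts (40.5%) the FPKM ranges of the 3 gill and the 3 kidney libraries were apart, with gill above for 14431 (23.2%) and kidney above for 10794 (17.3%). This set took in 16429 of the 16451 called.

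**Figure D1:**
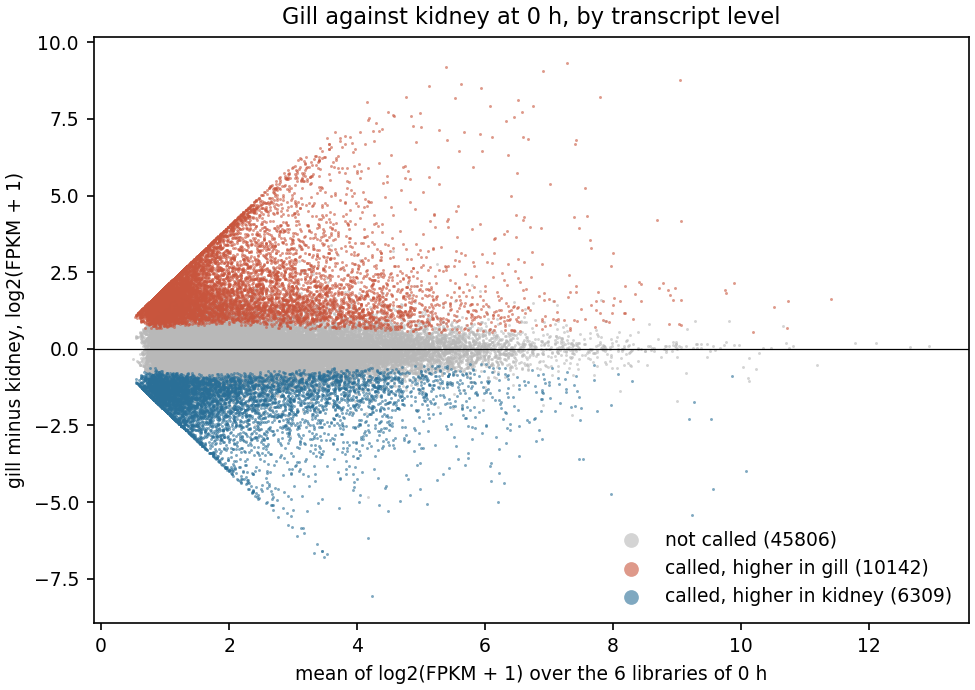
Difference between gill and kidney at 0 h (gill minus kidney, log2(FPKM + 1), vertical axis) against the mean level over the 6 libraries (mean of log2(FPKM + 1), horizontal axis), 1 point for each of the 62257 tested transcripts. Red points are the 10142 called higher in gill, blue points the 6309 called higher in kidney and grey points those not called; the red points reach past 9, and the blue ones to -8.07.

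Part of the 16451 calls were transcripts that passed the filter through 1 tissue alone. A transcript at 1 or more in the 3 libraries of 1 tissue and below 1 in all 3 of the other passed only through the tissue where it was high. There were 5888 such transcripts for gill, of which 5508 were called, and 3329 for kidney, of which 2943 were called. Among the other 53040 tested transcripts 15.1% were called, 4634 higher in gill and 3366 higher in kidney. The 31340 transcripts at 1 or more in all 6 libraries gave 16.5%, 2858 above in gill and 2314 above in kidney. In this broadly detected set the side with more calls turned without kidney replicate 2 in the fit, when 27.7% were called, 4013 above in gill and 4675 above in kidney.

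The direction of the calls depended little on level up to a mean FPKM of 300 over the 6 libraries. Between 1 and 3, 61.7% of calls were higher in gill, and between 100 and 300 the share was 59.6%, or 53.1% and 57.3% without kidney replicate 2. Above that level the gill side held more. Of 130 tested transcripts with a mean FPKM from 300 to 1000, 51 were called higher in gill and 9 in kidney, and of the 37 at 1000 or more, 13 were higher in gill and 3 in kidney. Without kidney replicate 2 the numbers were 51 and 16, and 13 and 5. Among transcripts with a mean of 1 or more, the share called was 23.7% between 1 and 3, 46.2% between 300 and 1000 and 43.2% at 1000 or more. The median absolute differences in these bins were 0.522, 0.714 and 0.893 on the log2 scale.

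No single transcript carried a large part of the FPKM total in either tissue. The single highest transcript held 1.80%, 1.69% and 1.29% of the total in gill replicates 1, 2 and 3, and 1.37%, 2.08% and 1.53% in the kidney replicates. The 10 highest of each library held 7.54%, 7.74% and 7.30% in gill and 6.93%, 9.30% and 7.83% in kidney. These shares overlap between the tissues, and the highest value is that of kidney replicate 2. The means were 7.53% ± 0.223 in gill and 8.02% ± 1.19 in kidney (SD, n = 3 each; exact permutation test, two-sided, p = 0.7, where the smallest p that 3 against 3 allows is 0.1). Without kidney replicate 2 the kidney mean was 7.38%, below that of gill.

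Further down the ranking the gill libraries were more concentrated than kidney replicates 1 and 3, but not all were more so than kidney replicate 2. The 100 highest transcripts held 20.7%, 20.8% and 21.8% of the total in gill and 18.1%, 20.8% and 18.8% in kidney (means 21.1% ± 0.642 and 19.2% ± 1.39, SD, n = 3 each; exact permutation test, p = 0.2). The 1000 highest held 41.5%, 40.6% and 42.9% in gill against 38.3%, 41.0% and 38.2% in kidney (exact permutation p = 0.2). In both rankings kidney replicate 2 lay among the gill libraries and the other kidney libraries lay below them. Summing to 50% of the total took 2075, 2260 and 1858 transcripts in gill and 2528, 1998 and 2615 in kidney (exact permutation p = 0.3). Levels of 1000 FPKM or more were reached by 44, 37 and 49 transcripts in gill and by 29 in each kidney library, without overlap between the tissues (exact permutation p = 0.1, the smallest possible). The FPKM totals were also higher in every gill library than in every kidney library, and counts at a fixed FPKM were not corrected for this.

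**Figure D2:**
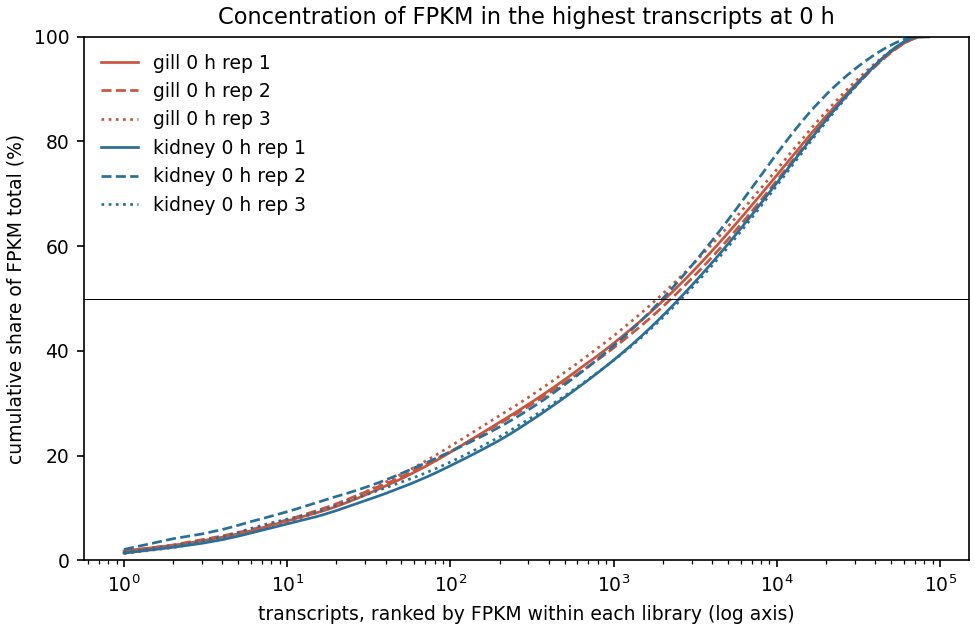
Cumulative share of the FPKM total (%, vertical axis) held by the transcripts of each library of 0 h, ranked from the highest down (log axis); red lines are gill, blue lines kidney, and line styles are replicates. At 1000 transcripts the gill lines lie between 40.6% and 42.9%, kidney replicates 1 and 3 at 38.3% and 38.2%, and kidney replicate 2 (dashed blue) at 41.0%.

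The 10 highest transcripts of gill, ranked by mean FPKM at 0 h, fell into 3 kinds. Ranks 1, 6, 7 and 10 were high in gill and low in kidney. Ranks 4 and 9 were high in both tissues and higher in gill. Ranks 2, 3, 5 and 8 were at similar levels in both tissues and were not called.

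The highest transcript of gill, TRINITY_DN22884_c0_g2_i1_1, had an FPKM of 12881, 11676 and 9025 in the 3 gill replicates and 16.97, 35.95 and 23.34 in the kidney replicates. Every gill library was far above every kidney library. The log2 difference was 8.77 (SE 0.28; limma adjusted p = 6.46e-06), and the mean FPKM was 440 times as high in gill. This transcript alone made up 1.59% of the gill total on average and 0.004% of the kidney total. At 24 h it stood at 10793, 9764 and 15437 in gill and at 30.29, 14.09 and 4.189 in kidney.

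TRINITY_DN29017_c0_g3_i6_4, at rank 6 in gill, had the largest difference of all called transcripts higher in gill whose groups did not overlap. Its FPKM was 4075, 3711 and 4022 in the gill replicates against 3.367, 7.22 and 5.617 in the kidney replicates. The log2 difference was 9.31 (SE 0.24; limma adjusted p = 5.21e-06), and the ratio of mean FPKM was 729. In the 24 h libraries gill held 1377, 825.8 and 3413 and kidney 6.313, 1.523 and 2.346, so the gill levels were lower and more spread than at 0 h while the groups still did not overlap. The change of the tissue difference from 0 h to 24 h was -0.67 (log2; SE 0.68; limma adjusted p = 0.855, fitted to all 12 libraries).

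The transcript at gill rank 10 was also high in gill and low in kidney. It held 2953, 2663 and 2783 FPKM in gill and 3.983, 5.87 and 3.082 in kidney at 0 h, and 976.5, 631.2 and 2923 in gill at 24 h. In gill ranks 1, 6, 7 and 10 alike, replicate 3 was the highest gill library of 24 h and replicate 2 the lowest. Gill rank 7 was 4029, 3331 and 4221 in gill and 10.11, 15.70 and 10.35 in kidney at 0 h, a log2 difference of 8.23 (SE 0.21; limma adjusted p = 5.21e-06).

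Ranks 4 and 9 in gill were abundant in kidney too. Rank 4 held 4999, 4501 and 4773 FPKM in gill and 2037, 1102 and 1681 in kidney, and rank 9 held 2842, 2735 and 3150 against 1169, 795 and 1063. Both groups of libraries were apart, with log2 differences of 1.61 (SE 0.24; limma adjusted p = 0.00223) and 1.54 (SE 0.19; limma adjusted p = 0.00103). At 24 h the corresponding differences were 1.60 and 1.53.

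Of the 10 highest transcripts of each tissue, 4 were shared. The highest of these, first in kidney and second in gill, held 7540, 8648 and 8115 FPKM in gill and 8723, 5366 and 9662 in kidney, and the libraries of the tissues overlapped. Its log2 difference was 0.08 (SE 0.24; limma adjusted p = 0.862). The next one, second in kidney and rank 3 in gill, carries the same Trinity component number in its ID, so the assembler placed both in 1 cluster of related sequence. Its levels were 6164, 6983 and 6525 in gill and 7078, 4610 and 7680 in kidney, again overlapping, and both transcripts were lowest in kidney replicate 2. The log2 differences of the other 2 shared transcripts were 0.18 (SE 0.17; limma adjusted p = 0.508) and 0.20 (SE 0.15; limma adjusted p = 0.43). The last of these, gill rank 8, did not overlap between the tissues, with 3711 to 3859 FPKM in gill and 2896 to 3677 in kidney. At these levels a p above the threshold does not show that the tissues are alike.

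The 10 highest transcripts of kidney held 3 that were called higher in kidney. The first of these, TRINITY_DN30476_c0_g1_i17_1 at kidney rank 3, had an FPKM of 4823, 3199 and 5322 in the kidney replicates and 209.7, 252.1 and 373.4 in the gill replicates. The lowest kidney library was replicate 2, and it was still above all gill libraries. The difference, gill minus kidney, was -4.0 (log2; SE 0.28; limma adjusted p = 0.000103), and the mean FPKM was 16.0 times as high in kidney. Its gill levels placed it at rank 210 there, so it was an abundant transcript of both tissues. At 24 h it held 4833, 4353 and 4956 in kidney and 243.9, 316.8 and 216.6 in gill.

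The other 2, at kidney ranks 7 and 8, were likewise present in gill. Rank 7 held 4194, 2519 and 5858 FPKM in kidney and 82.01, 110.6 and 81.79 in gill, a log2 difference of -5.43 (SE 0.31; limma adjusted p = 4.56e-05). For rank 8 the levels were 3902, 2406 and 5248 in kidney and 136.1, 185.7 and 146.2 in gill (-4.56, SE 0.29; limma adjusted p = 7.37e-05). In both, the kidney libraries ordered as replicate 3, 1 and 2 from high to low, an order also seen at kidney ranks 1, 2, 3, 6, 9 and 10. Their gill levels at 24 h were 337.6, 484.1 and 345.8 and 389.4, 552.0 and 352.3, and the change of the tissue difference over 24 h, 1.40 (SE 0.37) and 1.45 (SE 0.36), was not called (limma adjusted p = 0.253 and 0.223).

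Kidney ranks 4 and 5 rested on 1 library. Rank 4 had an FPKM of 13290 in kidney replicate 2, 8.672 and 6.097 in replicates 1 and 3, and at most 6.812 in gill. Rank 5 had 13066 in kidney replicate 2, 59.51 and 52.81 in the other kidney replicates, and 75.06, 68.96 and 85.80 in gill, so that without replicate 2 it was lower in kidney than in gill (limma adjusted p = 0.0466 without that library). Neither was called with all 6 libraries (limma adjusted p = 0.253 and 0.482). In the 24 h libraries both were high in kidney replicate 3 alone, at 1682 and 2314 FPKM, against at most 44.38 in the other 2 kidney libraries. Both belong to the set of 111 transcripts described above. Kidney rank 10 held 2873, 2358 and 3239 FPKM in kidney and 1847, 1990 and 2044 in gill, without overlap. It was not called with all 6 libraries (limma adjusted p = 0.0622), but was called higher in kidney without replicate 2 (limma adjusted p = 0.0358).

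TRINITY_DN25853_c0_g1_i5_1 had the largest difference of the called transcripts higher in kidney. It was listed at 0 in gill replicates 1 and 2 and at 0.5209 FPKM in gill replicate 3, and held 385.5, 203.3 and 374.0 in the kidney replicates. The log2 difference was -8.07 (SE 0.32; limma adjusted p = 1.18e-05), which on the log2(FPKM + 1) scale understates the ratio because gill is near 0. At 24 h its kidney levels were 138.3, 139.4 and 119.3, all below those of 0 h, and its gill levels were at most 0.9664. The change of its tissue difference was 1.53 (SE 0.42; limma adjusted p = 0.276) and was not called. It stood at rank 131 in kidney.

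**Figure D3:**
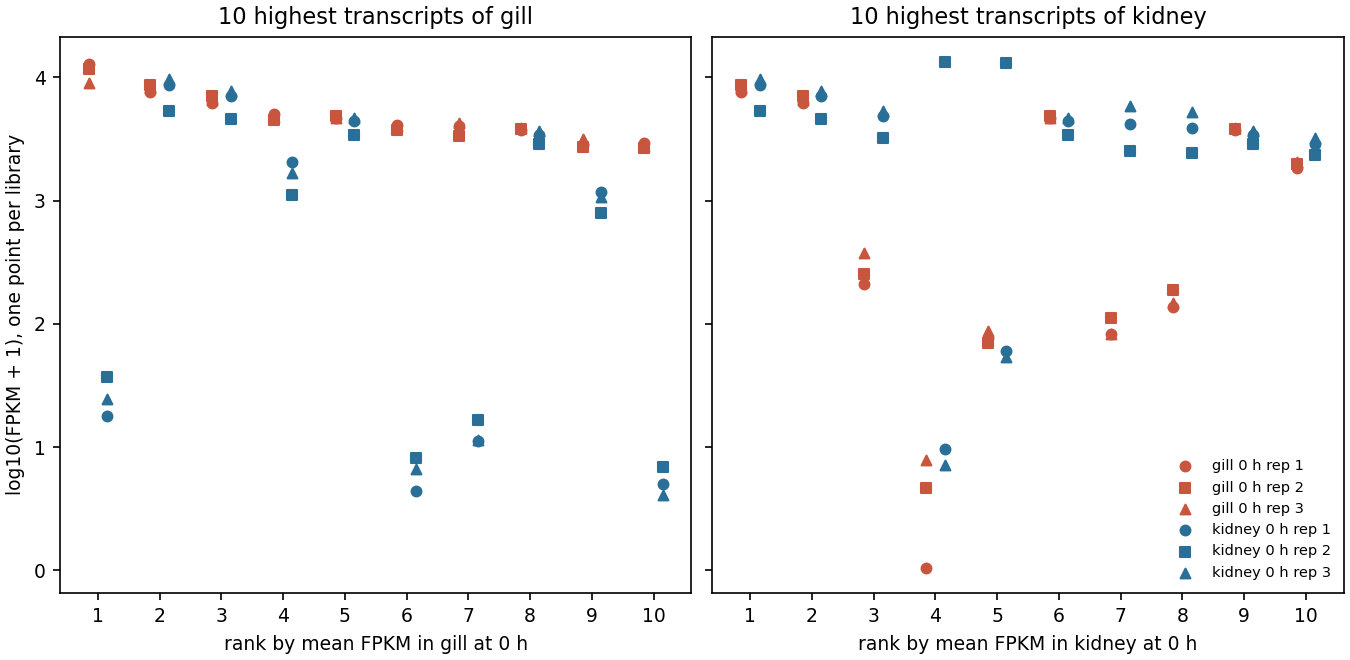
Levels of the 10 highest transcripts of gill (left) and of kidney (right) at 0 h, as log10(FPKM + 1) with 1 point per library (red gill, blue kidney; circle, square and triangle for replicates 1, 2 and 3), against rank by mean FPKM. Gill ranks 1, 6, 7 and 10 are low in kidney; at kidney ranks 4 and 5 the square of kidney replicate 2 stands alone above all other libraries.

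The lists of 100 highest transcripts of the tissues shared 50, which is 50% of each list, and those of 1000 shared 572, or 57.2%. The 50 on both lists had a median mean FPKM of 959 in gill and 867 in kidney, and they held 10.7% to 11.8% of the total in gill libraries and 9.80% to 11.6% in kidney libraries. Of these, 10 were called higher in gill, 1 was called higher in kidney and 39 were not called. Over all tested transcripts, 16.3% were called higher in gill and 10.1% higher in kidney. Being on both lists selects for high levels in both tissues, so these counts are a description.

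The parts of the lists of 100 that were not shared were selected under unequal cutoffs. The lowest mean FPKM on the list was 547 for gill and 386 for kidney. A transcript on the gill list alone therefore had its higher mean in gill by selection. One on the kidney list alone could have its higher mean in either tissue. The 50 transcripts on the gill list alone had a median mean FPKM of 940 in gill and 19.7 in kidney, and all 50 were called higher in gill, beside 16.3% of tested transcripts. They took 9.91%, 8.99% and 9.97% of the total in the gill libraries and 0.778%, 0.487% and 0.637% in the kidney libraries. The 50 on the kidney list alone had a median of 486 in kidney and 343 in gill, and 14 were called higher in kidney, beside 10.1% of tested transcripts. They took 6.38%, 9.63% and 6.59% of the total in the kidney libraries and 2.10%, 2.07% and 2.17% in the gill libraries. Since the lists were drawn from the same libraries and had unequal cutoffs, these values are a description. For that reason the 50 and the 14 calls do not compare the tissues on equal terms. The 100 highest of kidney also held 7 transcripts of the set high in kidney replicate 2. All 7 were not called, and the rule for that set by itself works against a call. With the kidney list ranked and fitted without replicate 2, 27 of its 100 were called higher in kidney, 8 higher in gill and 65 not called, against 15, 10 and 75 with all libraries. The shares of all tested transcripts called higher in kidney were 15.0% in that fit and 10.1% with all libraries, and those called higher in gill 17.6% and 16.3%.

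The top lists were followed in the 24 h libraries, which had no part in choosing them. At 0 h, the 100 highest transcripts of gill by mean FPKM held 20.6%, 20.5% and 21.7% of the total in gill. Those of kidney held 17.3%, 19.4% and 18.2% in kidney, more than in any kidney library of 24 h. The 0 h libraries were the ones that chose the lists. The 100 highest transcripts of gill at 0 h held 20.3%, 18.1% and 21.2% of the total in gill at 24 h and 11.5%, 11.4% and 11.1% in kidney at 24 h. In the same libraries the 100 highest of kidney held 13.8%, 12.7% and 13.2% in gill and 17.1%, 16.6% and 17.2% in kidney. Of the 100 highest at 0 h, 83 in gill and 84 in kidney were again among the 100 highest of their tissue at 24 h.

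Transcripts called higher in gill took up 36.6%, 34.5% and 35.7% of the FPKM total in the gill libraries of 0 h and 7.69%, 5.85% and 7.15% in the kidney libraries. Transcripts called higher in kidney took up 20.5%, 13.6% and 21.9% in kidney and 3.60%, 3.87% and 3.90% in gill. The largest share in every library was that of tested transcripts that were not called, at 56.8% to 59.3% in gill and 68.5% to 72.9% in kidney. Transcripts below the filter held 7.69% in kidney replicate 2 and 2.37% to 2.99% in the other 5 libraries. As the calls were made on these libraries, the shares at 24 h are given too, from libraries that were not used for the calls. They rest on the same list of transcripts, and the labels do not say whether the samples are separate fish. At 24 h gill-higher transcripts held 33.5%, 31.1% and 35.1% in gill and 7.47%, 7.40% and 6.80% in kidney, and kidney-higher transcripts 20.5%, 20.0% and 20.1% in kidney and 4.35%, 4.88% and 4.10% in gill. The kidney libraries of 24 h thus lay near kidney replicates 1 and 3 of 0 h, and apart from replicate 2. With calls made without that replicate, gill-higher transcripts held 37.8%, 35.4% and 39.3% in gill at 24 h and 10.8%, 10.8% and 10.5% in kidney. Kidney-higher ones held 29.3%, 28.6% and 28.7% in kidney and 9.23%, 10.1% and 8.78% in gill.

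**Figure D4:**
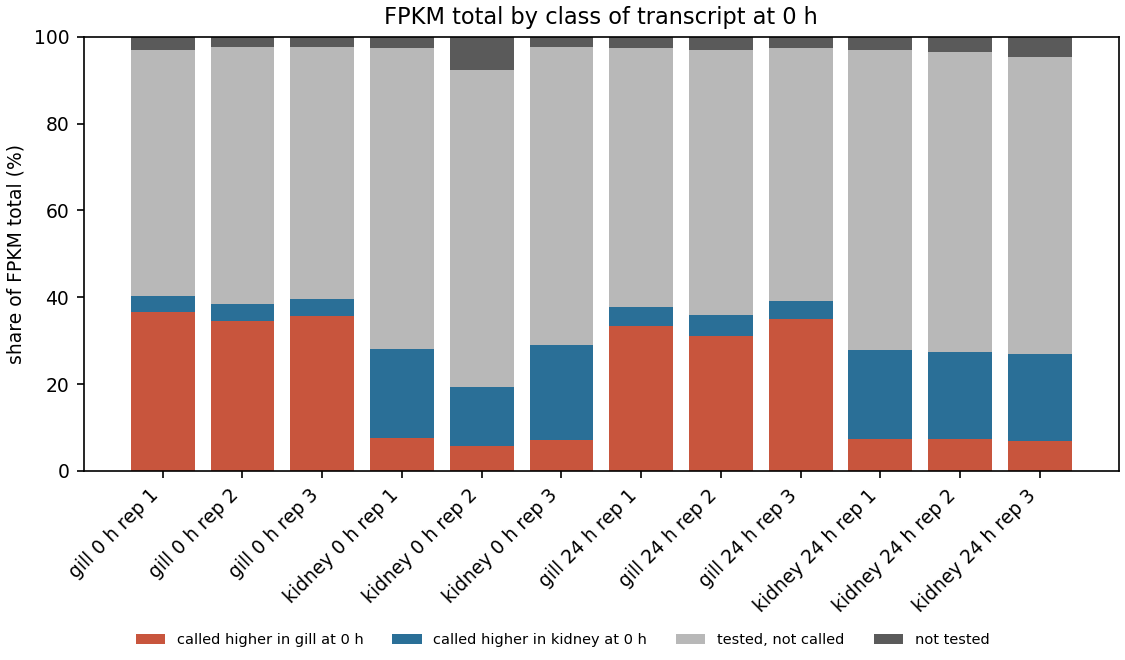
Share of the FPKM total (%, bars from 0 to 100) held in each of the 12 libraries by transcripts called higher in gill at 0 h (red), called higher in kidney at 0 h (blue), tested and not called (light grey) and not tested (dark grey). Red takes 31.1% to 36.6% in the 6 gill libraries and 5.85% to 7.69% in the 6 kidney libraries; kidney 0 h replicate 2 has the smallest blue part of the kidney libraries, 13.6%.

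Single transcripts called at 0 h mostly kept their direction at 24 h. Of the 10142 higher in gill, 97.2% had the same sign at 24 h and 8531 (84.1%) were higher in all 3 gill than in all 3 kidney libraries, beside 23.9% of all tested transcripts. Of the 6309 higher in kidney, 98.3% had the same sign and 5473 (86.7%) were higher without overlap, beside 26.1% of all tested. Tested transcripts that were not called also kept their sign in part. This held for 60.9% of those above in gill at 0 h and 78.4% of those above in kidney. For calls made without kidney replicate 2 the shares without overlap were 83.7% and 80.7%. Among the calls of all 6 libraries the share without overlap grew with the size of the 0 h difference. It was 73.9% in gill and 78.9% in kidney for differences under 1 on the log2 scale, and 92.6% and 93.9% between 2 and 4. For differences of 4 or more it was 99.5% in gill (608 of 611) and 100% in kidney (134 of 134). The median difference was smaller at 24 h than at 0 h among calls higher in gill, 1.45 against 1.69 on the log2 scale, and among calls higher in kidney, 1.46 against 1.53. The transcripts were chosen for their 0 h values.

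Tissue-limited transcripts were defined by an FPKM of 1 or more in all 3 libraries of a tissue and 0 in all 3 of the other. Gill had 1343 and kidney 530. They were of low level, with a median mean FPKM of 3.34 in gill and 2.88 in kidney, and the highest had 104 and 73.3. In all they held 1.56%, 0.767% and 1.17% of the gill totals and 0.377%, 0.230% and 0.363% of the kidney totals. The transcripts that gave each tissue its largest shares therefore did not meet this definition, which asks for a listed 0. Gill ranks 1, 6, 7 and 10 missed it with mean FPKM 440, 729, 320 and 649 times as high in gill. Kidney ranks 3, 7 and 8 missed it at 16.0, 45.8 and 24.7 times as high in kidney. At 10 FPKM or more in all 3 libraries there were 28 tissue-limited transcripts for gill and 6 for kidney. Leaving out a library loosens the definition, so the counts can then only stay or rise. Without gill replicate 2 they were 3127 for gill and 819 for kidney, and without kidney replicate 2 the kidney count was 856. Without gill replicate 1 they were 1546 and 726, and without gill replicate 3 they were 1585 and 747. At 24 h, 1083 (80.6%) of the gill set and 442 (83.4%) of the kidney set were higher in their tissue without overlap, beside 23.9% and 26.1% of all tested transcripts; the sets had been chosen as listed at 0 in the other tissue at 0 h. A smaller part, 487 (36.3%) and 195 (36.8%), met the full definition again, and 101 and 43 reached an FPKM of 1 in some library of the other tissue.

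The direction of the calls went with the number from 1 to 4 that ends each transcript ID, which the labels do not explain. Of calls whose ID ends in 2, 5364 were higher in gill and 326 in kidney (94.3% higher in gill), and of those ending in 3, 476 were higher in gill and 3366 in kidney (12.4%). For IDs ending in 4 the numbers were 2951 and 1007 (74.6%). Those ending in 1 were the most even, with 1351 higher in gill and 1610 higher in kidney (45.6%), so that the excess on the gill side was not seen there. Without kidney replicate 2 the shares higher in gill were 38.4%, 88.5%, 16.3% and 64.4% for the endings 1 to 4.

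Values of 0 were spread over the endings in the same manner. Among IDs ending in 2, 0.875%, 5.74% and 1.51% were at 0 in the gill libraries and 24.7%, 28.5% and 25.4% in the kidney libraries. Among IDs ending in 3 the shares were 14.5%, 12.6% and 15.6% in gill and 2.61%, 2.67% and 4.84% in kidney. For IDs ending in 4, gill replicate 2 (1.74%) and kidney replicate 3 (7.59%) had the lowest shares of their tissues. Of the 1343 gill-limited transcripts 948 ended in 2 and none in 3, and of the 530 kidney-limited ones 391 ended in 3 and none in 2. The 111 transcripts high in kidney replicate 2 held 77 that ended in 3, and that ending made up 39.2% of the FPKM total in this library against 28.2% to 29.9% in the other kidney libraries. Of 60329 Trinity gene names without the ending number, 19052 occur with more than 1 number, so the number is needed to tell these transcripts apart. Whether the 4 sets were assembled from different libraries is not stated in the labels. The numbers of transcripts higher in gill or in kidney, and of tissue-limited transcripts, therefore cannot be told apart from how the table was put together.

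**Figure D5:**
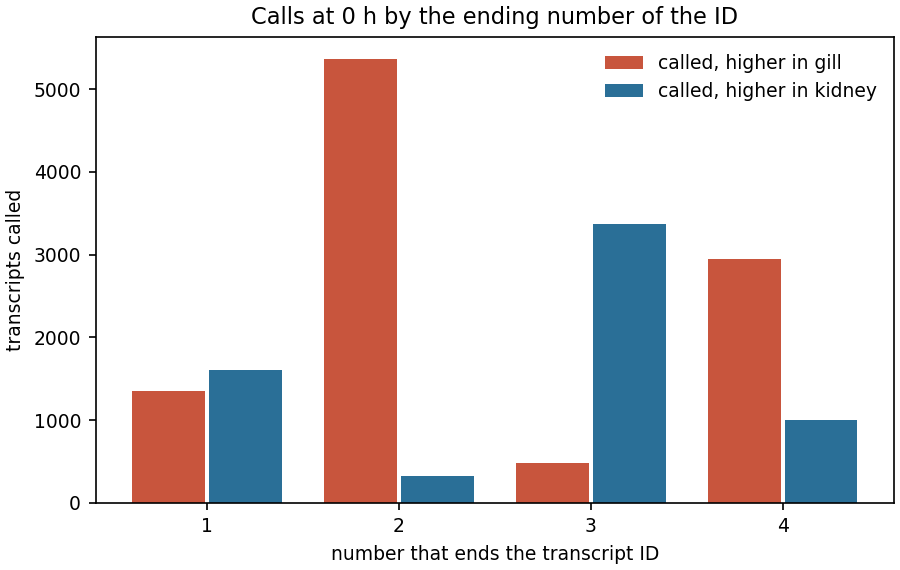
Transcripts called different between gill and kidney at 0 h (number, vertical axis, from 0) by the number that ends the transcript ID (horizontal axis), with those higher in gill in red and those higher in kidney in blue. Ending 2 has 5364 against 326, ending 3 has 476 against 3366, ending 4 has 2951 against 1007 and ending 1 has 1351 against 1610.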

How the data were processed

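The authors deposited FPKM values, 1 column per library, with no read counts. Reads were trimmed with Trimmomatic (no version named), per the submitters' processing notes, and TRIzol was used to extract total RNA, per the labels' protocols. How the transcripts were assembled and counted is not stated there. The IDs look like those of the assembler Trinity, and the table holds 1 transcript for each Trinity gene and ending number (84875 of each). The sample titles gave the groups, and columns were matched to samples by the library names in the labels.

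From these values log2(FPKM + 1) was computed for transcripts that had 3 or more of the 6 libraries of 0 h at an FPKM of at least 1, and gill and kidney were compared with limma 3.58.1 in R 4.3.3 (lmFit and eBayes with a mean-variance trend, 4 residual degrees of freedom), which was tested on simulated data. Adjusted p-values cover all 62257 tested transcripts. Values per library were compared by exact permutation tests in Python 3.11.15. The change of the tissue difference from 0 h to 24 h came from a fit of 4 group means to all 12 libraries. FPKM is relative within a library, so a level says nothing of absolute RNA amount, and without counts the precision of a single value is unknown. Relative depth was read from 11963 transcripts at 0 in at least 4 of the 12 libraries (median residual of 15 pairs of libraries 0.00638 on the log2 scale, largest 0.0301).

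The comparison, the lists and the tests were chosen with earlier results of these data known. Named are, for each tissue, the called transcript without overlap between the groups that had the highest mean FPKM and the one with the largest difference; the 10 highest of each tissue are described by rank. Gene and marker lists of the tissues could not be used, because the IDs are not paired with gene names. The alternatives were another pseudocount, other filters, equal totals, median-ratio scaling, quantile normalization, all 12 libraries in the fit, a replicate block, library weights and leaving out each library. The calls by level and at 24 h without kidney replicate 2, the rule for the 111 transcripts of kidney replicate 2, the count by Trinity component and the ranking of kidney without replicate 2 were chosen after the data were seen.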

Additional observations from a re-analysis of the deposited data

How the results depend on the processing

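The number of transcripts called (16451) stayed within 1.5 times under every alternative run: 15074 with a pseudocount of 0.1, 17996 with no filter, 15174 with a filter on the mean, 16459 with equal totals, 17927 with median-ratio scaling, 17760 with quantile normalization, 20001 with all 12 libraries fitted and 21806 with library weights, under which kidney replicate 2 had a weight of 0.193. Leaving out single libraries gave 12024 to 20277 calls, 7855 to 10966 higher in gill and 4169 to 9311 higher in kidney; the lowest kidney number came without gill replicate 1 and the highest without kidney replicate 2. Library weights gave 10018 higher in kidney. The number higher in kidney (6309) thus moved by more than 1.5 times with library weights and without gill replicate 1. The number higher in gill stayed within that bound. The 4 named transcripts stayed called in the same direction under all 15 alternatives, with limma adjusted p from 4.78e-09 to 0.00139. They had been chosen among the calls of these same libraries for high levels or large differences, so this is only a description. The difference in the share of the 10 highest transcripts (gill minus kidney, -0.495 percentage points) ranged from -1.04 to 0.143 without single libraries, positive without kidney replicate 2, and was 0.253 with transcripts ranked once per tissue; the cause was not tested. Those for 100 and 1000 transcripts stayed positive, at 1.31 to 2.65 and 1.88 to 3.42 without single libraries and at 2.60 and 3.63 with that ranking. Tissue-limited transcripts numbered 28 in gill and 6 in kidney at 10 FPKM or more, and 1546 to 3127 and 583 to 856 without single libraries, where fewer libraries must meet the definition. A fit with a block for the replicate number called 14661, 14143 of them shared in the same direction; same-numbered gill and kidney libraries deviated together at correlations of 0.102, -0.0115 and 0.0363, below the bound of 0.1 in 2 of 3, so the numbers were not read as pairs; gill replicates 1 and 3 correlated best with their own number and replicate 2 did not. These correlations cannot decide whether samples share a fish, since kidney replicate 2, which stood apart, enters the mean behind every kidney deviation. The library names number the 0 h samples 1, 2 and 4 in both tissues. Sums per Trinity gene were not run, because the table holds 1 transcript for each gene name and ending number. Depth is known in relative terms only, and a value of 0 can be a low level that was not sampled.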

Other observations

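Trinity places transcripts of related sequence in numbered components, each of which can hold several of its genes. In the comparison of gill and kidney at 0 h, 6792 components held 2 or more tested transcripts, 16640 in all, and 1370 of them held 2 or more that were called. In 770 of these all calls were higher in gill, in 482 all were higher in kidney, and in 118 calls went in both directions, or 97 when calls had to differ by 1 or more (log2). Over all tested transcripts 26.4% were called, and 61.6% of the calls were higher in gill. The direction of the calls also went with the number that ends the ID, so these counts are a description. Transcripts of 1 component can be pieces of 1 gene, alleles or related genes, which the IDs do not tell apart.

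Kidney replicate 2 of 0 h also had transcripts that were low. A set of 28 was at 10 FPKM or more in both other kidney libraries of 0 h and at least 10 times the level of replicate 2. The rule that found 111 high transcripts in this library, applied within each group of 24 h, found 12 in kidney replicate 3 and 0 or 1 in each of the other 5 libraries.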
